A study of Mus musculus with 15 samples.

Results

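The cadherin genes of 4T1 cells were followed across untreated cells and 4 berry treatments. The members were the rows of the count table whose symbol is Cdh plus digits, Dsg or Dsc plus a digit and an optional letter, or begins with Pcdh. These were 102 of 40402 rows: 18 classical cadherins (5 of type I and 13 of type II), 5 other Cdh genes, 9 desmosomal cadherins, 58 clustered protocadherins (15 Pcdha, 22 Pcdhb and 21 Pcdhg) and 12 other protocadherins. 4T1 is a mouse mammary carcinoma line grown from a triple-negative tumour and labelled wild type. The groups were untreated cells, cells given blackberry extract (BLA) or blueberry extract (BLU), and cells given gold nanoparticles made with blackberry (BLA-A) or blueberry (BLU-A) extract. The labels list 3 samples per condition with a batch date of their own each, so condition and date cannot be told apart. The study gives biological replicates as its general rule. For the sequencing, however, its supplementary notes list 1 total of raw reads per condition and 3 read subsets of equal size, and the counts of the 3 differed by less than the sampling noise (chi-square per degree of freedom 0.0951 to 0.475). The 3 were therefore taken as subsets of 1 library, averaged and counted as 1 library, and a treated library could not be tested against the untreated one.

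Cadherins are calcium-dependent adhesion proteins that span the cell membrane. Classical cadherins hold neighbouring cells together at adherens junctions and are tied to actin by catenins. Desmosomal cadherins, the desmogleins and desmocollins, do the same at desmosomes, where plaque proteins tie them to keratin. Protocadherins adhere more weakly, and the clustered ones give neurons a surface identity through the choice among many neighbouring promoters. In mammary epithelium Cdh1 (E-cadherin) is the main classical cadherin, and Cdh2 (N-cadherin) is a marker of mesenchymal cells.

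The 5 libraries held 25613711 to 26956308 counts, and the limit that a count of 0 allows, 3 counts, was 0.111 to 0.117 CPM (counts relative to all counts of a library). Levels are CPM scaled by the trimmed mean of M values (TMM), and fold changes are log2 of the ratio of CPM plus 0.5. Where 4 treated values follow one another, they stand in the order BLA, BLU, BLA-A, BLU-A. Counting intervals are 95% intervals of the log2 ratio of counts without the added 0.5 CPM, so at a few counts they reach lower than the fold change. A gene was kept with 1 CPM in at least 1 library, and 27 members passed that filter. Bulk RNA cannot tell fewer cells of a type from less RNA per cell. The epithelial markers Krt8 (176 to 435 CPM), Krt18 (452 to 690.0 CPM), Epcam (39.8 to 69.0 CPM) and Cdh1 were present in every library, whereas Krt14 was under 1 CPM and Krt5 was listed at 0. Of the other lists, the endothelial markers summed to 2.94 to 7.03 CPM and the immune markers to 8.16 to 10.0 CPM. The fibroblast list summed to 88.4 to 104 CPM, nearly all of it Pdgfra, with Lum at 0 throughout and Col3a1 at 0 in all libraries but BLU-A, which held 1 count. The neuronal list summed to 40.9 to 56.9 CPM, mostly Map2 (39.9 to 50.9 CPM), with Rbfox3 at 5.86 CPM in untreated cells and 1.32, 2.07, 0.562 and 6.43 CPM in the 4 treatments. The part of these markers in the results was not tested.

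Detection differed between the classes. No clustered protocadherin passed the filter, whereas this held for 13 of 18 classical, 5 of 5 other Cdh, 3 of 9 desmosomal and 6 of 12 other protocadherin genes, together 27 of the 44 members outside the clusters. The summed level of all members was 380.3 CPM in untreated cells and 333, 329, 468 and 336 CPM in the 4 treatments. Of that sum, Cdh1 alone made up 124 CPM in untreated cells and 233 CPM in BLA-A.

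**Figure D1:**
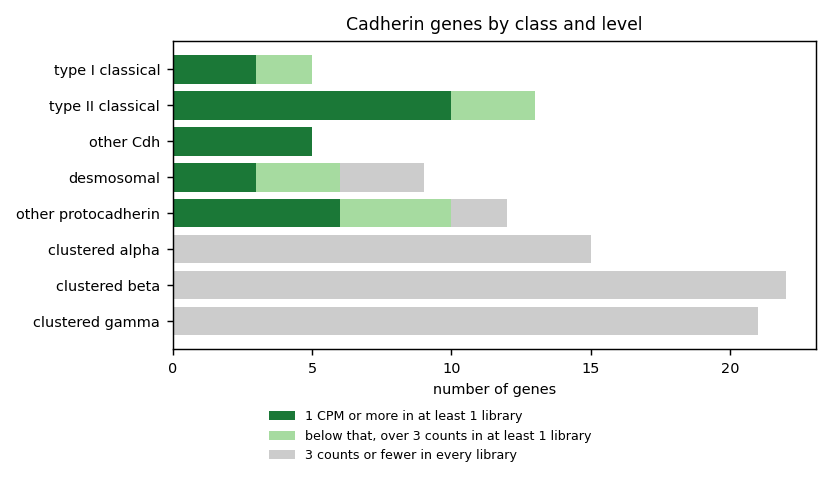
Number of genes (x axis) in each class of the family (y axis), split into genes with 1 CPM or more in at least 1 library before TMM scaling, genes below that with over 3 counts in at least 1 library, and genes with 3 counts or fewer in every library. All 58 clustered protocadherins are in the last group, against 3 desmosomal and 2 other protocadherin genes.

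The clustered protocadherins were listed at 0 in all 15 columns for 57 of 58 genes, and Pcdha1 had 1 count in 1 BLA-A column. Whether these zeros mean absence of RNA was not tested, and they are not read as absence here. In the annotation used here (GENCODE M39, GRCm39) the 3 clusters lie in tandem on the plus strand of chromosome 18, from 37063237 to 37975014, and each member is listed as a gene of its own. Of the 58 genes, 57 were covered over their full span by other genes of the same strand, and Pcdha1 over 96.5% of its span. The long gene models Gm38666, itself listed at 0 counts, and Pcdha4b run across nearly the whole stretch. The authors counted reads per gene by strand in union mode, in which a read that falls in 2 genes of a strand is assigned to neither. Across the protein-coding genes of the table, 210 of the 297 that were covered in full on their own strand had 0 counts in every column (70.7%), against 2640 of 20613 others (12.8%). With the clustered protocadherins left out, it was 153 of 240 (63.8%). Taf7, a TFIID subunit gene on the opposite strand inside the same stretch, was counted at 287 in untreated cells and at 297, 229, 161 and 279 in the 4 treatments. The authors' own annotation was RefSeq, so the cover there was not measured. Among the 44 members outside the clusters the largest same-strand cover was 0.0206% of the span, and Pcdh8 and Pcdh20 were listed at 0 in every library.

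The genes that are known to act on clustered protocadherin promoters were present at these depths. Ctcf, which marks the promoters and loops them to enhancers, was at 151 CPM in untreated cells and 126, 149.7, 129.7 and 133 CPM in the 4 treatments. Rad21, a cohesin subunit that works with it, was at 493 to 581 CPM over the 5 libraries. Wapl, the cohesin release factor, was at 202 to 231 CPM, and the silencing factors Smchd1 and Setdb1 were at 228 to 255 and 92.0 to 104 CPM. Dnmt3b, a DNA methyltransferase, was the lowest, at 3.72 to 6.69 CPM. None of the 6 was over 1 log2 unit from untreated cells in any treatment.

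Read per length, Cdh1 stood first of all members in every library. In untreated cells its level was 26.7 CPM per kb of exon, followed by Cdh17 at 3.74, Cdh24 at 3.35, Dsg2 at 3.16, Pcdh1 at 2.72 and Cdh13 at 2.40 CPM per kb of exon. Since the counts include introns, levels were also read per kb of gene span, where Cdh1 was at 1.85, Cdh24 at 1.24, Pcdh1 at 0.900, Dsg2 at 0.651 and Cdh17 at 0.284 CPM per kb. Cdh13, whose gene spans 1041 kb, was on that scale at 0.0266 CPM per kb, below Dsc2 (0.190) and Dsg3 (0.190). The order below Cdh1 therefore depended on the length used, and with 1 library per condition neighbours in it could not be told apart beyond counting error.

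**Figure D2:**
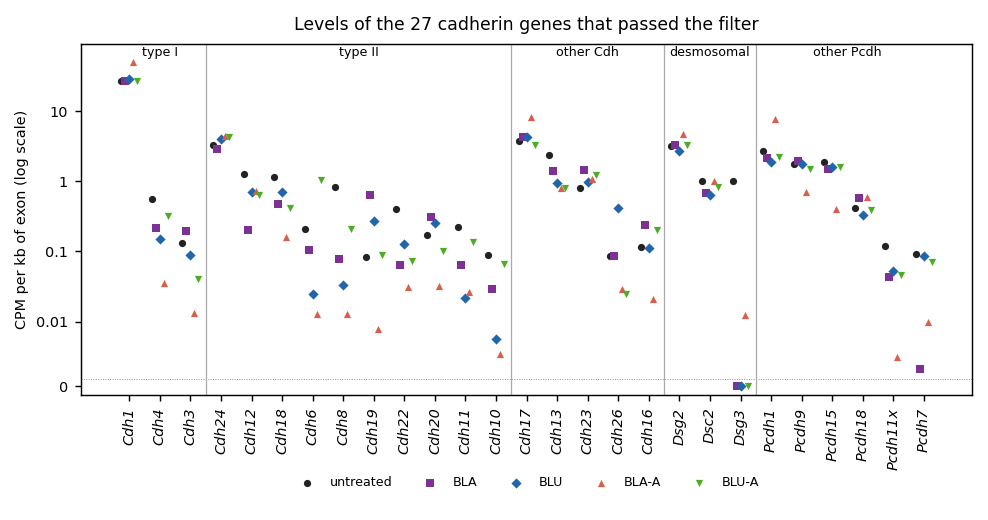
Level of the 27 members that passed the filter in each of the 5 libraries, as CPM per kb of exon on a log axis (y axis, 0 drawn at the bottom), with genes ordered by class and by their highest level (x axis). Cdh1 is highest at 26.7 in untreated cells and 50.2 in BLA-A, and Dsg3 is the gene with 3 treated libraries at 0.

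Across the members that passed, lower values outnumbered higher ones in each treatment. In BLA 9 of 27 lay over 1 log2 unit from untreated cells (1 higher, 8 lower), where 16.5% of all 17647 genes tested were (7.93% higher, 8.55% lower). In BLU it was 10 (2 higher, 8 lower), against 10.3% of all genes (5.66% higher, 4.64% lower). In BLA-A it was 16 (2 higher, 14 lower), against 20.9% (8.54% higher, 12.4% lower). In BLU-A it was 6 (1 higher, 5 lower), against 7.85% (3.35% higher, 4.51% lower). The 4 comparisons share the untreated library, and none was tested. Median log2 fold changes of the 27 were -0.35, -0.34, -1.22 and -0.30 in the 4 treatments, beside -0.01, -0.01, -0.01 and 0.00 for all genes.

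The classes differed in how many members lay that far from untreated cells, where 16.5%, 10.3%, 20.9% and 7.85% of all genes did. Of 10 type II genes 6, 6, 6 and 4 did, with median log2 fold changes of -1.06, -1.01, -1.76 and -0.49. Of 3 type I genes 1, 1, 2 and 0 did, with medians of 0.01, -0.34, -1.22 and -0.71. Of 5 other Cdh genes 0, 2, 2 and 1 did, with medians of 0.19, 0.17, -0.38 and -0.16, and of 3 desmosomal genes 1 in each treatment, which was Dsg3. The desmosomal medians were -0.50, -0.58, 0.00 and -0.26, where the value for BLA-A became -0.18 with total counts alone as the scale. Of 6 other protocadherins 1, 0, 5 and 0 did, with medians of -0.35, -0.26, -1.47 and -0.27, so that BLA-A held nearly all their differences. The classes hold few genes and were not matched for level or gene length, and no test was made between them.

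A gene that is near 0 in some libraries enters by its highest one, so these counts are a description and were also split by level. Of the 16 members below 10 CPM in their highest library, 8, 8, 9 and 3 were past the threshold in the 4 treatments, beside 31.7%, 21.2%, 31% and 17.7% of all genes kept at that level. Of the 11 members at 10 CPM or more, 1, 2, 7 and 3 were, beside 6.68%, 3.3%, 14.5% and 1.54% of all such genes. A filter of 1 CPM in every library removes genes that are near 0 in any condition. It left 13 members, of which 2, 1, 6 and 2 were past the threshold in the 4 treatments. The share of all genes past the threshold under that filter was not computed, so these counts stand without a background.

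The share of lower genes differed with gene length too. Of all genes tested that span 500 kb or more, 38.2%, 14.0%, 63.6% and 28.9% were over 1 log2 unit lower in the 4 treatments. Of the 6 members of that span, 2, 1, 5 and 2 were. Of all genes of 100 to 500 kb, 17.6%, 8.69%, 28.1% and 10.1% were lower, and of the 9 members of that span 5, 6, 7 and 2 were. Higher by that much were 7.81%, 5.15%, 2.45% and 1.62% of all genes of that span, and 0, 0, 0 and 1 of the members. The medians of all genes of that span were 0.19, 0.23, -0.16 and 0.09, so only in BLA-A did they lie below 0. Of the 12 shorter members 1, 1, 2 and 1 were lower. Among all genes of 100 to 500 kb that stayed below 10 CPM, 63.8% were lower in BLA-A and 20.1% in BLU. At 10 CPM or more, 3.77% of all genes of 100 to 500 kb and 38.1% of those of 500 kb or more were lower in BLA-A. In the extracts more genes at that level were higher than lower. At 100 to 500 kb it was 10.1% against 1.26% in BLA and 5.79% against 0.907% in BLU. At 500 kb or more it was 21.2% against 14.4% in BLA and 13.6% against 7.63% in BLU. Among members below 10 CPM, 6 of 7 of 100 to 500 kb and 1 of 2 longer ones were lower in BLA-A, and at 10 CPM or more it was 1 of 2 and 4 of 4. Dsg3 and Cdh3, which were also lower in BLA-A, span under 100 kb. The part of gene length in the values below was not tested.

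**Figure D3:**
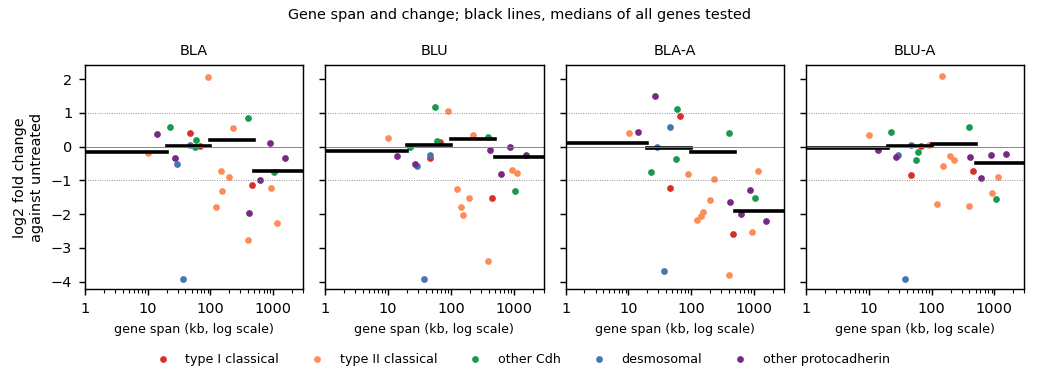
Log2 fold change against untreated cells (y axis) of the 27 members (points, coloured by class) by gene span in kb on a log axis (x axis), 1 panel per treated library, with the median of all genes tested in 4 classes of span as black lines. In BLA-A the median of all genes of 500 kb or more is -1.89, and the members above 100 kb lie mostly below 0.

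Type I classical cadherins differed between the main epithelial gene and the rest. Cdh1 (chromosome 8, 107329941 to 107396880) was at 124 CPM in untreated cells and 124, 135, 233 and 126 CPM in the 4 treatments. BLA-A was thus the high library, and the other 4 lay within 124 to 135 CPM. The log2 fold change of Cdh1 in BLA-A was 0.91, with a counting interval from 0.85 to 0.97, and 0.01, 0.13 and 0.02 in the others. With total counts alone as the scale it was 0.71 in BLA-A, where the median of all genes moved to -0.19.

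Cdh3 (P-cadherin), which lies beside Cdh1 on chromosome 8 (107237456 to 107283929) and is known from basal and myoepithelial cells, had 23 counts in untreated cells and 35, 16, 2 and 7 counts in the 4 treatments. The 2 counts in BLA-A gave a log2 fold change of -1.22, with a counting interval from -6.45 to -1.31. Cdh4 (R-cadherin), known from retina and nerve, had 109 counts in untreated cells and 43, 30, 6 and 61 counts, and its log2 fold changes were -1.14, -1.53, -2.60 and -0.71. Cdh2 had 10 counts in untreated cells and 0, 2, 0 and 21 counts in the 4 treatments and did not pass the filter. N-cadherin was thus highest in BLU-A, at 0.794 CPM, and at or under the limit of 3 counts in the other treatments. Cdh15 (M-cadherin of muscle) had 0 counts in untreated cells and 8, 8, 5 and 8 counts.

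Type II classical cadherins, known mostly from neurons, vessels and mesenchyme, summed to 52.0 CPM in untreated cells and 26.2, 32.1, 25.1 and 42.3 CPM in the 4 treatments. Cdh8 (chromosome 8, 99751103 to 100144308), a neuronal cadherin, had 218 counts in untreated cells and 21, 9, 3 and 55 counts in the 4 treatments. Its 3 untreated columns held 210 to 232 counts and its 12 treated columns 2 to 57, where the columns of a condition are subsets of 1 library. The log2 fold changes were -2.77, -3.39, -3.79 and -1.75, and the 3 counts in BLA-A allowed a ratio from -8.27 to -4.42 on the log2 scale. BLU-A kept the most Cdh8 of the treated libraries. On the opposite strand the span of Cdh8 overlaps A330008L17Rik, whose log2 fold change was -1.67 in BLA-A and -0.88 to -0.40 in the other treatments.

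Cdh22 (chromosome 2, 164953045 to 165076940), known from brain, had 73 counts in untreated cells and 12, 24, 5 and 13 counts, with log2 fold changes of -1.78, -1.24, -2.18 and -1.71. Its treated columns held 4 to 25 counts and its untreated columns 71 to 77, again subsets of 1 library per condition. Cdh11 (OB-cadherin), known from mesenchyme and bone, had 69 counts in untreated cells and 20, 7, 7 and 42 counts and log2 fold changes of -1.32, -2.04, -1.95 and -0.57, so that BLU-A was again the treated library closest to untreated cells. Cdh24 was, unlike most type II genes, within 1 log2 unit of untreated cells in all 4 treatments. It had 12.6 CPM in untreated cells and 10.9, 15.3, 16.9 and 16.2 CPM in the 4 treatments, and its log2 fold changes were -0.20, 0.27, 0.40 and 0.35.

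The type II genes on chromosome 15 lie in 1 stretch from 13028787 to 23474504, in the order Cdh6, Cdh9, Cdh10, Cdh12 and Cdh18. Cdh6 (K-cadherin), known from kidney and the embryo, had 56 counts in untreated cells and 29, 7, 3 and 283 counts in the 4 treatments. It was thus low in both extract libraries and in BLA-A, and highest by far in BLU-A. The 3 BLU-A columns, subsets of 1 library, held 279 to 288 counts. The log2 fold change in BLU-A was 2.10, with a counting interval from 1.93 to 2.79, and -0.73, -1.79 and -2.05 in BLA, BLU and BLA-A.

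Against untreated cells the neighbours of Cdh6 did not rise by over 1 log2 unit in BLU-A. Among the treated libraries BLU-A was the highest for Cdh9 and Cdh10 too, but not for Cdh12 and Cdh18. Cdh9 had 6 counts in untreated cells and 0, 1, 0 and 7 counts and was not tested. Cdh10 had 30 counts in untreated cells and 10, 2, 1 and 22 counts, with log2 fold changes of -0.91, -1.51, -1.58 and -0.29. Cdh12, a brain cadherin, had 240 counts in untreated cells and 40, 138, 121 and 123 counts, and BLA was its lowest library, with a log2 fold change of -2.27 beside -0.79, -0.73 and -0.89 in the others. Cdh18, also neuronal, had 296 counts in untreated cells and 122, 185, 35 and 106 counts, with log2 fold changes of -1.22, -0.69, -2.53 and -1.37. BLA was thus the low library for Cdh12, and BLA-A for Cdh18.

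A second stretch of type II genes, on chromosome 1 from 104696236 to 110905349, held Cdh20, Cdh7 and Cdh19. Cdh19, known from Schwann cells and their precursors, had 12 counts in untreated cells and 95, 41, 1 and 13 counts in the 4 treatments. It was higher in both extracts, by log2 fold changes of 2.07 and 1.07, and had 1 count in BLA-A (counting interval -8.80 to -0.63). Cdh20 had 19 counts in untreated cells and 35, 29, 3 and 11 counts and stayed within 1 log2 unit of untreated cells. Cdh7 had 17 counts in untreated cells and 22, 0, 0 and 7 counts and did not pass the filter, like the endothelial cadherin Cdh5, which had 12 counts in untreated cells and 10, 18, 11 and 10 counts.

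Start-site windows of 4 of these type II genes are shown because Cdh8 and Cdh22 were over 1 log2 unit lower in all 4 treatments, and because Cdh6 and Cdh18, the ends of 1 stretch, differed in opposite directions in BLU-A. RefSeq windows of 300 bases (250 before the start to 50 after, build GRCm38.p6, whose coordinates differ from the GRCm39 positions above) were held for 22 of the 32 members on chromosomes for which windows were read. They were chr8:99416422-99416721 (minus strand) for Cdh8, chr2:165234688-165234987 (minus strand) for Cdh22, chr15:13173626-13173925 (minus strand) for Cdh6 and chr15:23036213-23036512 (plus strand) for Cdh18. Each window is written 5′ to 3′ on the strand of its gene. The Cdh6 window lies beside its gene's end at 13174004 despite the change of build. The Cdh18 window lies well inside its gene, which starts at 22549108, so it shows an internal start site and not the outermost one. Capitals mark matches, on either strand, to 4 short motifs. These were the GC box GGGCGG, the CCAAT box motif read as ATTGGC, the E-box CACCTG known to be read by Snail and Zeb repressors, and the TATA box read as TATAAA, each with its reverse complement.
Cdh8: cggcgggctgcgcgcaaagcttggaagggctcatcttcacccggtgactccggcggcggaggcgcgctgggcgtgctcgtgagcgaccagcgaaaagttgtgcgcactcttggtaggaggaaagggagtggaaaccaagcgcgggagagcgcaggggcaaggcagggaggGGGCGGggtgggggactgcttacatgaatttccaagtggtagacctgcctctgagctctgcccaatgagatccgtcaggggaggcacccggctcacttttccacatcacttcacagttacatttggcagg
Cdh22: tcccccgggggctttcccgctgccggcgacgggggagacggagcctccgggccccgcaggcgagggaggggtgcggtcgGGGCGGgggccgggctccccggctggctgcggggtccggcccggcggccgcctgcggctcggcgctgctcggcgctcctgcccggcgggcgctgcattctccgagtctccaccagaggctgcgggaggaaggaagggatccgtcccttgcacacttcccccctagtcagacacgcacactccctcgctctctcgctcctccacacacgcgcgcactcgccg
Cdh6: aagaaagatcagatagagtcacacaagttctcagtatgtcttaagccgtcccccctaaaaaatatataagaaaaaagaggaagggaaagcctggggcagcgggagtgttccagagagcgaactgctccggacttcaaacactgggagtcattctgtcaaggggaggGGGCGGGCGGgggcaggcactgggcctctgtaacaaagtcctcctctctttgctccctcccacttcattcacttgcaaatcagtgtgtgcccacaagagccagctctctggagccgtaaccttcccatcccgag
Cdh18: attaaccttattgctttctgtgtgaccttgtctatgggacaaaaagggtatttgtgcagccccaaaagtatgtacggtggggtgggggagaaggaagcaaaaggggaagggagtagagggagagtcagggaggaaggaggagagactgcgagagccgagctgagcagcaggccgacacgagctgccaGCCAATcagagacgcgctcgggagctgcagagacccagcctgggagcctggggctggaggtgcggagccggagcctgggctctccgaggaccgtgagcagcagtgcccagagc
A GC box was present in Cdh8, Cdh22 and Cdh6, and in 35.7% of all 32851 windows. In Cdh6 the capitals join 2 overlapping GC boxes. The motif ATTGGC or GCCAAT was found in the internal Cdh18 window, and in 14.7% of all windows. The Cdh8 window holds a CCAAT without the leading G, which was not searched for and stands in lower case. No E-box of these letters was found in the 4 windows, against 20.2% of all windows, and no TATAAA, against 13.6%. CG dinucleotides numbered 38 in Cdh22, 21 in Cdh8, 12 in Cdh18 and 8 in Cdh6, beside a median of 7 over all windows. Cdh6 and Cdh8, which were both lower in BLA-A than in BLA and higher in BLU-A than in BLU, differed in CG content and both held a GC box. A link between these windows and the changes was not tested.

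**Figure D4:**
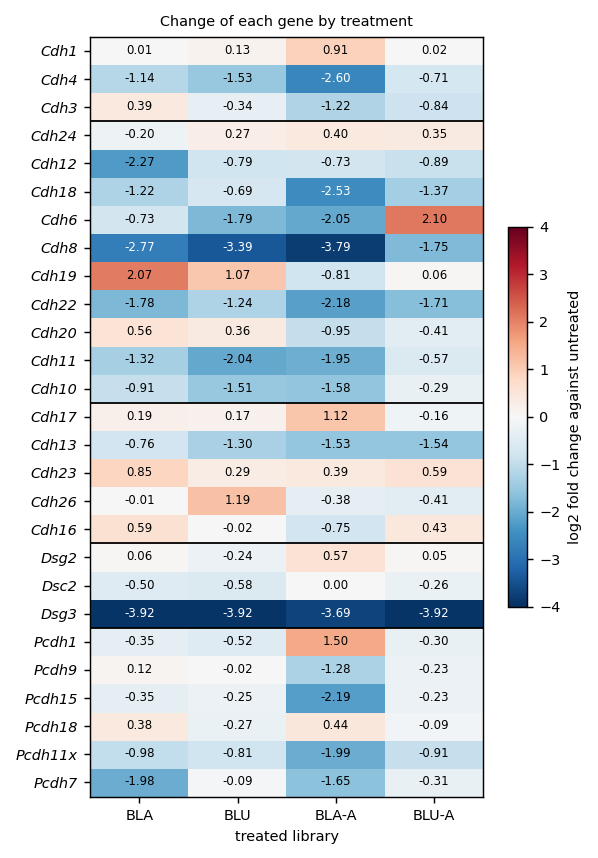
Log2 fold change of TMM-scaled CPM plus 0.5 against untreated cells for the 27 members that passed the filter (rows, grouped by class) in the 4 treated libraries (columns), with the value in each cell, red for higher and blue for lower. Dsg3, Cdh8 and Cdh22 are below -1 in all 4 columns, and the positive values above 1 are those of Cdh6, Cdh19, Cdh17, Cdh26 and Pcdh1.

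Desmosomal cadherins split between Dsg3 and the rest. Dsg3 (desmoglein 3, chromosome 18, 20643331 to 20680516), a desmoglein of stratified epithelium and the pemphigus antigen, had 188 counts in untreated cells and 0, 0, 2 and 0 counts in the 4 treatments. All 3 untreated columns held 182 to 198 counts, and no treated column held more than 3. Against the floor of 3 counts per library its level was at least 64.1, 64.8 and 62.3-fold lower in BLA, BLU and BLU-A, and in BLA-A the 2 counts gave a ratio from -9.41 to -4.48 on the log2 scale.

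Dsg2, which is found in nearly all desmosomes and lies next to Dsg3 (20691074 to 20737581), was at 30.3 CPM in untreated cells and 31.5, 25.7, 45.3 and 31.5 CPM in the 4 treatments. Its log2 fold changes were 0.06, -0.24, 0.57 and 0.05, and its partner Dsc2 was at 5.52 CPM in untreated cells and 3.75, 3.53, 5.53 and 4.54 CPM, with -0.50, -0.58, 0.00 and -0.26. Neither was over 1 log2 unit from untreated cells. Dsg2 is overlapped on the other strand by Gm16090, which was at 14.3 to 27.8 CPM and had its highest level in BLA-A as well. The epidermal genes of the same locus stayed below the filter. Dsg4 had 10 counts in untreated cells and 0, 12, 0 and 7 counts, Dsg1c had 13 counts in untreated cells and 0, 20, 2 and 4 counts, and Dsg1a had 5 counts in untreated cells and 0, 12, 0 and 0 counts. Dsc1, Dsc3 and Dsg1b had at most 3 counts in any library.

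The other Cdh genes were all above the filter. Cdh13 (T-cadherin, chromosome 8, 119010328 to 120051660), which is held by a lipid anchor and lacks the catenin-binding tail, was at 27.7 CPM in untreated cells and 16.1, 10.9, 9.25 and 9.22 CPM in the 4 treatments. Untreated cells held the most, and both nanoparticle libraries the least, with log2 fold changes of -0.76, -1.30, -1.53 and -1.54. Cdh17 (LI-cadherin), known from liver and intestine, was at 17.0 CPM in untreated cells and 19.4, 19.2, 37.6 and 15.1 CPM. It was high in BLA-A, by a log2 fold change of 1.12, which was 0.93 with total counts alone and so no longer past 1.

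Cdh23, a tip-link cadherin of the inner ear, was highest in BLA, at 17.0 CPM in untreated cells and 30.9, 20.9, 22.4 and 25.7 CPM in the 4 treatments, and its log2 fold changes were 0.85, 0.29, 0.39 and 0.59. Vsir, an immune checkpoint gene that lies inside Cdh23 on the opposite strand, was at 5.49 CPM in untreated cells and 9.78, 7.45, 4.84 and 7.67 CPM, also highest in BLA. The 2 genes are counted by strand, and the part of the overlap was not tested. Cdh26 had 7 counts in untreated cells and 7, 34, 2 and 2 counts, with a log2 fold change of 1.19 in BLU, and Cdh16 (kidney cadherin) had 13 counts in untreated cells and 27, 13, 2 and 22 counts.

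Among the other protocadherins, Pcdh1 was highest in the library where the long genes Pcdh15 and Pcdh9 were lowest. Pcdh1 (chromosome 18, 38318963 to 38345869), known from epithelial cells, was at 24.2 CPM in untreated cells and 18.9, 16.7, 69.5 and 19.6 CPM in the 4 treatments. BLA-A was the single high library, with a log2 fold change of 1.5 (1.31 with total counts alone) and a counting interval from 1.39 to 1.66, while the other treated libraries lay below untreated cells, at -0.35, -0.52 and -0.30.

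Pcdh15, the binding partner of Cdh23 in tip links, spans 1550.4 kb and was at 45.0 CPM in untreated cells and 35.3, 37.8, 9.46 and 38.4 CPM. BLA-A was its low library, with a log2 fold change of -2.19, beside -0.35, -0.25 and -0.23. Pcdh9, which spans 877 kb, was also lowest in BLA-A, at 16.5 CPM in untreated cells and 18.0, 16.2, 6.52 and 14.0 CPM, with -1.28 in BLA-A. Pcdh11x had 44 counts in untreated cells and 16, 20, 1 and 17 counts, with log2 fold changes of -0.98, -0.81, -1.99 and -0.91 and a counting interval from -10.59 to -2.70 for its 1 count in BLA-A.

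Pcdh7 had 43 counts in untreated cells and 1, 41, 4 and 32 counts in the 4 treatments, so it was near 0 in both blackberry libraries and close to untreated cells in both blueberry ones. Its log2 fold changes were -1.98, -0.09, -1.65 and -0.31. Pcdh18 had 61 counts in untreated cells and 85, 50, 76 and 56 counts and stayed within 1 log2 unit. Pcdh19, known for an X-linked epilepsy, had 13 counts in untreated cells and 5, 1, 2 and 6 counts and did not pass the filter. Pcdh10, Pcdh12 and Pcdh17 also stayed below it, with at most 17 counts in any library.

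**Figure D5:**
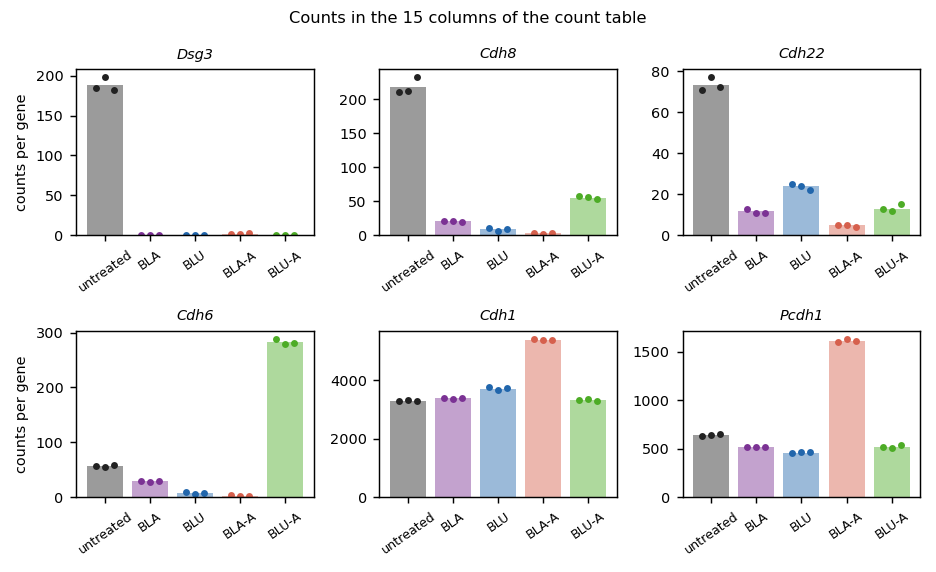
Counts per gene (y axis, from 0, 1 scale per panel) of 6 members in the 5 conditions (x axis), with bars for the mean of 3 columns and points for the columns, which are subsets of 1 library. Dsg3, Cdh8 and Cdh22 are highest in untreated cells, Cdh6 in BLU-A and Cdh1 and Pcdh1 in BLA-A.

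The 4 treated libraries were also set against the untreated one in a single edgeR quasi-likelihood fit over all 17647 genes, in which the spread comes from differences between treatments. Of the 27 members, 4 had an unadjusted p under 0.05, where 2.73% of all genes did. All 4 were lower in treated cells, as 0.657% of all genes were at that p. They were Dsg3, Cdh8, Cdh22 and Cdh13. Dsg3 and Cdh22 passed the filter only through the untreated library, at 7.07 and 2.74 CPM. Lower treated values are part of how such genes entered, so their direction is a description only. No member had an adjusted p under 0.05, where 0.0227% of all genes did, and DESeq2 gave 4 and 0 members at the same limits. The log2 fold change of Cdh8 was -3.30 with a standard error of 1.07 (edgeR quasi-likelihood adjusted p = 0.999), that of Cdh22 was -2.43 with 0.98 (adjusted p = 0.999), and that of Cdh13 was -1.28 with 0.38 (adjusted p = 0.999), each lower in 4 of 4 treated libraries. Dsg3 had an edgeR adjusted p of 0.670, which was 0.0188 without the BLA-A library and lay between 0.0188 and 1 over the settings tried on the 5 averaged libraries.

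The intracellular partners of cadherins held 3 genes that were far from untreated cells. Of the 15 catenin and plaque genes, 0 were higher and 3, 2, 3 and 3 lower by over 1 log2 unit in the 4 treatments. This was 20.0%, 13.3%, 20.0% and 20.0% of the list, beside 16.5%, 10.3%, 20.9% and 7.85% of all genes. Their median log2 fold changes were 0.08, -0.03, 0.31 and 0.01. The ubiquitous catenins were not among those past the threshold. Ctnnb1 (beta-catenin) was at 627 CPM in untreated cells and 594, 612, 837 and 566 CPM, Ctnna1 (alpha-E-catenin) at 371 to 437 CPM and Ctnnd1 (p120-catenin) at 434 to 587 CPM. Jup (plakoglobin) and Dsp (desmoplakin), which carry desmosomes, were at 100.5 CPM in untreated cells and 93.1, 97.5, 180.4 and 107 CPM and at 83.2 CPM in untreated cells and 93.6, 79.2, 119.6 and 84.2 CPM in the 4 treatments, highest in BLA-A like Cdh1 and Dsg2.

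The 3 genes past the threshold were the tissue-restricted catenins. Ctnna2, the neuronal alpha-catenin, had 158 counts in untreated cells and 50, 55, 5 and 37 counts, with log2 fold changes of -1.46, -1.37, -3.17 and -1.76. Ctnna3, the alpha-catenin of heart and testis, had 227 counts in untreated cells and 91, 103, 17 and 83 counts, with -1.23, -1.09, -2.87 and -1.31. Ctnnd2, a neuronal delta-catenin, had 226 counts in untreated cells and 71, 115, 11 and 92 counts, with -1.53, -0.94, -3.21 and -1.18. Their genes span 1098, 1580.5 and 857 kb, within the longest class above, and none had an unadjusted p under 0.05 in the edgeR fit.

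Of the 6 repressors of Cdh1, 5 were kept and 1 was over 1 log2 unit from untreated cells, in 1 treatment. Twist1 was at 50.6 CPM in untreated cells and 36.7, 41.9, 25.0 and 44.1 CPM in the 4 treatments, and in BLA-A it was just past the threshold. Snai1 was at 20.2 CPM in untreated cells and 13.1, 15.0, 32.9 and 22.9 CPM, and was thus highest in BLA-A, the library with the most Cdh1. Zeb2 was at 186 to 279.8 CPM, Zeb1 at 1.38 to 4.80 CPM and Twist2 at 5.82 to 8.71 CPM, and Snai2 had too few counts for the filter.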

How the data were processed

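Total RNA of 4T1 cells was sequenced after removal of ribosomal RNA. The authors aligned reads to GRCm39 with STAR and counted them per RefSeq gene by strand, introns included, in union mode. The deposited values were whole-number counts for 15 columns. Deposited tables of the authors' own comparisons and enrichments were not used. The 3 columns of a condition were averaged and rounded. Genes with 1 CPM in at least 1 library (17647) were scaled by TMM and fitted with edgeR 4.0.16 (quasi-likelihood, Benjamini-Hochberg adjustment, tested on simulated data), with DESeq2 1.42.0 as an alternative. Counting intervals are exact 95% binomial intervals, cover counting error only, and leave out variation between cultures. Positions are from GENCODE M39. Named were members at 10 CPM or more, those over 1 log2 unit from untreated cells in every treatment, the 3 largest changes each way per treatment at 3 CPM or more, those the study names, Cdh2, Cdh3, Dsg2 and Dsc2, and partners past 1. Further members were named after their values were seen, to account for every gene. Members and lists were chosen with earlier results of these data known.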

Additional observations from a re-analysis of the deposited data

Results flagged for a closer look

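Cdh6 and Cdh8 were each over 1 log2 unit lower with the nanoparticle than with the extract for blackberry. For blueberry each was over 1 log2 unit higher. Cdh4, Cdh10, Cdh11, Cdh16, Cdh23 and Pcdh15 had the same signs, but not over 1 log2 unit for both berries. Cdh1, Cdh12, Cdh17 and Pcdh7 had the opposite signs. For Cdh6 the log2 difference of BLA-A minus BLA was -1.31 and that of BLU-A minus BLU was 3.89. For Cdh8 it was -1.01 for blackberry and 1.64 for blueberry. Each condition is 1 library, so no difference between the berries was tested, and BLA-A held 3 counts each of Cdh6 and Cdh8.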

How the results depend on the processing

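Scaling by total counts or DESeq2 size factors, no filter, 10 counts in 1 library, pseudocount 0.1 CPM and asking also that the counting interval leave out no change kept the counts of members over 1 log2 unit from untreated cells within 1.5 times of 9, 10, 16 and 6 in the 4 treatments. The filter of 1 CPM in every library, which Dsg3, Cdh8, Cdh22 and Cdh6 do not pass, gave 2, 1, 6 and 2, and left 1 member with unadjusted p under 0.05. A pseudocount of 2 CPM gave 5, 4 and 10 in BLA, BLU and BLA-A. Leaving out 1 of the 3 columns gave 9 to 10, 10, 16 to 17 and 6 to 7. With the 15 columns as separate samples, 10 members had unadjusted and 9 adjusted p under 0.05 in edgeR. Of all 18007 genes tested in that way, 6108 and 3808 did. With the replicate block these were 10 and 6 members, beside 5371 and 2737 of all 18007 genes. Deviations of same-numbered columns had a mean correlation of -0.0011, so the numbers pair nothing, and the columns are not independent. Leaving out the BLA-A library gave 1 member (Dsg3) with adjusted p under 0.05. Of 672 recomputed fold changes of named members 10 moved by more than 0.5 times the width of their counting interval. Where a library held 0 counts the interval has no lower end, so a move could not be counted there. This holds for Dsg3 in BLA, BLU and BLU-A and for Cdh2 in BLA and BLA-A, values that depend on the pseudocount. In 6 the sign changed (Cdh1 in BLA, Dsc2 in BLA-A and Pcdh9 in BLU), whose reported values lay within 0.0248 of 0, and in 0 of those over 1 log2 unit. Depth limits genes under 3 counts, 0.117 CPM at most.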

Other observations

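The wider cadherin superfamily held both abundant and scarce genes. Fat1, a giant protocadherin that restrains growth and is broad in epithelia, was at 585 CPM in untreated cells and 565, 607, 1146 and 529 CPM in the 4 treatments. Clstn1 (calsyntenin 1), which links cargo to kinesin, was at 179.7 CPM in untreated cells and 189, 177, 399.9 and 173 CPM, with log2 fold changes of 0.07, -0.02, 1.15 and -0.06. The planar polarity cadherins Celsr1 and Celsr2 were at 13.2 CPM in untreated cells and 8.97, 14.4, 30.5 and 14.3 CPM and at 9.51 CPM in untreated cells and 8.57, 6.47, 20.9 and 10.4 CPM. These 3 had log2 fold changes over 1 in BLA-A, and Fat1 was at 0.97 there. With total counts alone as the scale the median of all genes in BLA-A moved to -0.19.

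Several scarce genes of that list were lower in some treatments. Fat3 had 178 counts in untreated cells and 41, 60, 3 and 30 counts, and its ratio in BLA-A lay from -7.98 to -4.12 on the log2 scale. Dchs2 had 94 counts in untreated cells and 11, 55, 4 and 19 counts, Clstn2 159 counts in untreated cells and 76, 136, 6 and 60 counts and Fat4 41 counts in untreated cells and 14, 27, 1 and 20 counts in the 4 treatments. Fat2 was low in BLU-A, with 60 counts in untreated cells and 59, 62, 63 and 20 counts. Cdhr3 had 36 counts in untreated cells and 32, 9, 0 and 12 counts, and Celsr3 was higher in the extracts, with 7 counts in untreated cells and 33, 35, 9 and 13 counts. Cdhr18 stayed within 1 log2 unit, with 39 counts in untreated cells and 16, 45, 20 and 30 counts. Of the 12 genes that passed the filter 1, 1, 3 and 0 were higher and 3, 2, 5 and 4 lower by over 1 log2 unit, where 7.93%, 5.66%, 8.54% and 3.35% of all genes were higher and 8.55%, 4.64%, 12.4% and 4.51% lower. Their median log2 fold changes were -0.34, -0.13, -0.15 and -0.48. The edgeR fit gave Fat3 an adjusted p of 0.999.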
